A study of Saccharomyces cerevisiae with 8 samples.

Results

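The mitochondrial ribosomal protein genes of budding yeast were taken as all ORF-Ts, the deposited transcript models of protein-coding genes, whose common name begins with MRPL, MRPS, MRP or RSM followed directly by a digit. The name rule itself used no measured value, but the set was chosen with earlier results of these data known. Out of 7272 features in all, the rule found 65 of 5169 ORF-Ts. Of these, 36 encode proteins of the large subunit, among them MRP7, MRP20 and MRP49, and 27 encode proteins of the small subunit. The remaining members are RSM22, a methyltransferase-like protein tied to small-subunit assembly, and MRP8, which is not known as a ribosomal protein. The genes lie on 14 chromosomes, and both transcript ends are marked as mapped for 62 of them. One model carries the symbols RSM23 and CWC23 and abuts the RSM23 model, sharing 1 bp with it, and another carries MRPL19 and YNL184C, so neither can be credited to a single gene.

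Mitochondrial ribosomes translate the few proteins that the mitochondrial genome encodes, mostly membrane subunits of the respiratory chain and the ATP synthase. Nearly all of their protein subunits are encoded in the nucleus, transcribed by RNA polymerase II, translated in the cytosol and imported, so each organelle ribosome depends on many scattered nuclear genes. In budding yeast the mRNAs of this gene set are known as targets of the RNA-binding protein Puf3, which acts after transcription, whereas the assay used here reads transcription itself.

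The study sequenced nascent RNA held by RNA polymerase II (NET-seq) in 8 libraries, 2 biological replicates each of wild type and of mutants lacking Cac1, Cac2 or Cac3, the subunits of the histone chaperone CAF-I, which deposits histones H3 and H4 onto newly replicated DNA. All strains were grown to mid-log phase in YPD, a rich glucose medium, and all carry the FLAG-tagged polymerase subunit Rpb3 that is used for the pull-down. The wild type is labelled YSC0001 Rpb3-FLAG, and the mutants are YSB3062 Rpb3-FLAG cac1Δ, YSB3063 Rpb3-FLAG cac2Δ and YSB3064 Rpb3-FLAG cac3Δ. The wild type thus bears a strain name of another numbering than the 3 mutants, and any difference of strain background from wild type cannot be told apart from the effect of the deletions, which all share the same 2 control libraries.

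The libraries held between 1880299 and 7705151 reads on features, and a member gene held between 57 and 1221 reads in a library. The deleted gene's nascent level fell in its own mutant, from 38.1 to 13.8 RPKM for RLF2 (the gene of Cac1), from 60.9 to 19.9 for CAC2 and from 71.8 to 32.2 for MSI1 (the gene of Cac3), in each case below all 6 libraries of the other strains. A part of the level thus remained on each deleted gene, and its source was not tested. Levels are given here as RPKM, reads normalised for the length of the feature in kilobases and for the scaled size of the library. A change is called when its p from the edgeR quasi-likelihood test, adjusted by Benjamini and Hochberg's method across every feature tested, is below 0.05.

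In wild type the 65 genes were transcribed at a moderate and fairly even level. Their median was 99.5 RPKM, against 60.6 for all ORF-Ts and 723 for 135 cytosolic ribosomal protein genes. The median was 48.1 for 56 other nuclear genes of mitochondrial translation and transcription, 11 of which encode mitochondrial ribosomal proteins with other names. The highest and the lowest member, at 182 and 41.1 RPKM, were 4.44-fold apart. The cytosolic ribosomal protein genes spanned 51.1-fold, but both spans rest on the extremes of sets of unlike size. The lower and upper quartiles were 75.9 and 125 RPKM for the members and 570 and 1056 for the cytosolic genes, a similar relative width. They were 36 and 109 for all ORF-Ts. Large-subunit and small-subunit genes had nearly the same median, 99.4 and 99.5 RPKM. The members took between 0.662% and 0.672% of ORF-T reads in wild type. Their share was between 0.631% and 0.638% without Cac1, between 0.617% and 0.661% without Cac2 and between 0.614% and 0.643% without Cac3. Both wild-type shares lay above all 6 mutant shares, but the lower one, 0.662%, was all but equal to the 0.661% of the second cac2 library.

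MRPL28, a mitochondria-specific large-subunit protein, stood highest at 182 ± 2.23 RPKM (SD, n = 2). It was followed by MRPL37 at 171 ± 0.239, MRPL44 at 167 ± 3.26 and MRPL20 at 160 ± 1.94, all large-subunit proteins with no bacterial counterpart, and by MRPL36, the counterpart of a bacterial large-subunit protein, at 151 ± 19.9. The first 4 kept the same order in both wild-type libraries, though MRPL37 and MRPL44 were as close as 171 and 169 RPKM in the second, while MRPL36, at 137 and 165 RPKM, was not separated from MRPL20.

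At the low end, the model shared by RSM23 and CWC23 had 41.1 ± 7.05 RPKM and RSM22 had 42.8 ± 3.68. RSM23, a GTP-binding small-subunit protein, had 50.2 ± 1.66 RPKM, MRPL35, a mitochondria-specific large-subunit protein, had 54.03 ± 0.0544, and MRPL7, the counterpart of a bacterial large-subunit protein, had 55.7 ± 1.59. The first 2 overlapped between libraries, so their order is not set by these data, and even the lowest member stood at percentile 30.4 of all ORF-Ts.

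**Figure D1:**
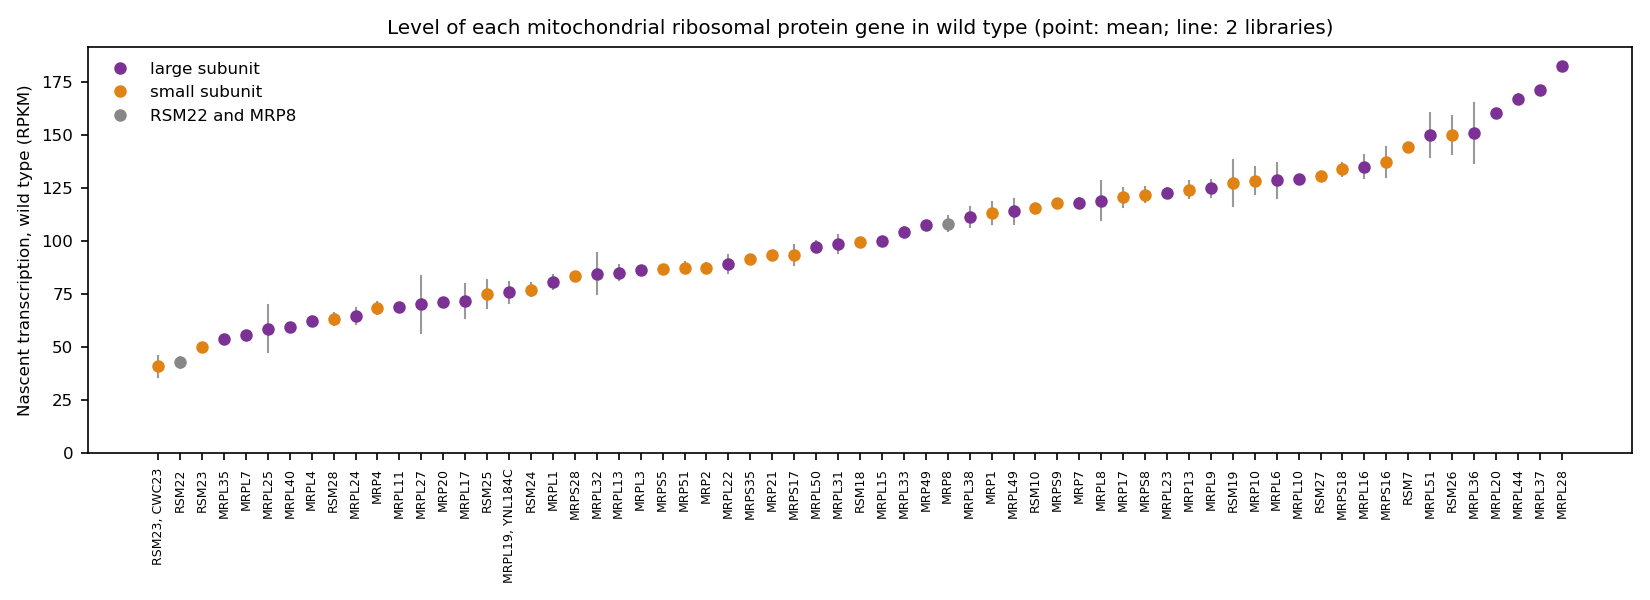
Nascent transcription of each of the 65 features in wild type, as RPKM on a linear axis, ordered from lowest to highest; points are means, vertical lines join the 2 libraries, and colours give the subunit. Levels run from 41.1 RPKM for the model of RSM23 and CWC23 to 182 RPKM for MRPL28, and the colours of the 2 subunits are mixed along the whole range.

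Most member genes had fitted levels slightly below wild type in the CAF-I mutants. When the 3 mutants were averaged and set against wild type, 9 of the 65 members fell and 0 rose, where 8.86% of all 7271 features tested fell and 11.9% rose. The DESeq2 test called 2 lower, MRPL44 and MRPL51, and 0 higher, where it called 4.19% and 5.96% of features. With no scaling beyond the total of reads 6 were lower and 1, RSM22, higher (5.34% and 16.8% of features). The members' median change was then -0.06, but single genes moved alike, from -0.62 to -0.56 for MRPL44 and from -0.37 to -0.31 for MRP17. The ORF-T median under this scaling is not given, so -0.06 is not to be set against the medians below. With the replicate number as a block 14 were lower and 1, again RSM22, higher (14.1% and 16.7%). The median log2 change of the members was -0.12, against 0.01 over all features tested and 0.00 over ORF-Ts, and 54 of the 65 members lay below zero. The share of members that fell was 13.8%, and no test of the list was made. The count rests on having both wild-type libraries: leaving out either one left 2 members called lower, MRPL44 and MRPL6 without replicate 1, where 4.74% of features were lower, and MRPL44 and MRPL51 without replicate 2, where 1.24% were.

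MRPL44, a mitochondria-specific protein of the large subunit, moved furthest. Its level was 165 and 169 RPKM in the wild-type libraries, 95.4 and 115 without Cac1, 102 and 100 without Cac2 and 111 and 127 without Cac3. All 6 mutant libraries lay well below both wild-type libraries, with cac3 the nearest to them. The log2 change of the mean of the mutants was -0.62 (SE 0.07, adjusted p = 0.000384), a level 0.65 times that of wild type. MRPL44 fell in each mutant taken alone, by 0.64 in cac1, 0.73 in cac2 and 0.49 in cac3 on the log2 scale, and it was the one member called lower in all 3 and under every alternative fit of the mean of the mutants. Its gene lies at chromosome XIII, positions 720781 to 721429, on the minus strand, overlaps no other model, and has no annotated divergent start within 500 bp upstream.

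Of the other 8 members that fell, 4 belong to the large subunit. MRPL51, a mitochondria-specific protein, had 160 and 140 RPKM in the wild-type libraries, 106 and 109 without Cac1, 117 and 121 without Cac2 and 118 and 113 without Cac3 (log2 change -0.37, SE 0.07, adjusted p = 0.00709). The mutant libraries were close together and all below wild type. MRPL6, the counterpart of a bacterial protein, had 120 and 137 RPKM in the wild-type libraries, 97.3 and 94.8 without Cac1, 119 and 97.9 without Cac2 and 106 and 111 without Cac3 (-0.34, SE 0.07, adjusted p = 0.00961). Here the first cac2 library almost reached the lower wild-type one. MRP49, a mitochondria-specific protein, had 108 and 107 RPKM in the wild-type libraries, 83.3 and 84.5 without Cac1, 97 and 84.5 without Cac2 and 88.6 and 89.9 without Cac3 (-0.30, SE 0.08, adjusted p = 0.0246). MRPL10, whose bacterial counterpart is also a large-subunit protein, had 128 and 130 RPKM in the wild-type libraries, 106 and 108 without Cac1, 98.5 and 109 without Cac2 and 113 and 119 without Cac3 (-0.25, SE 0.06, adjusted p = 0.0126). In both genes the wild-type pair was tight and stood clear of every mutant library.

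The 4 small-subunit members that fell are all counterparts of bacterial small-subunit proteins. MRP17 had 125 and 116 RPKM in the wild-type libraries, 87.7 and 94.2 without Cac1, 81.6 and 94 without Cac2 and 92.9 and 101 without Cac3 (log2 change -0.37, SE 0.09, adjusted p = 0.0137). MRPS8 had 126 and 118 RPKM in the wild-type libraries, 85.6 and 91.6 without Cac1, 83.7 and 108 without Cac2 and 91.2 and 99.2 without Cac3 (-0.36, SE 0.10, adjusted p = 0.0236). In both, the mutant libraries were all below wild type, and in MRPS8 the second cac2 library was the highest of them. MRP21 had 92 and 95.2 RPKM in the wild-type libraries, 81.5 and 69.4 without Cac1, 78.2 and 71.3 without Cac2 and 73.2 and 82.6 without Cac3 (-0.32, SE 0.09, adjusted p = 0.0355). MRPS5 had 87.5 and 86.4 RPKM in the wild-type libraries, 80.5 and 77.6 without Cac1, 75.2 and 77.6 without Cac2 and 76.2 and 77 without Cac3 (-0.17, SE 0.05, adjusted p = 0.0416). MRPS5 was the smallest change called, with a level 0.89 times that of wild type, and it missed the threshold with the replicate block (adjusted p = 0.06). MRP21, MRP49 and MRPS5 all lost their call without further scaling, with the DESeq2 test and without either wild-type library. MRP21 was also not called without cac1 replicate 2, cac2 replicate 2 or cac3 replicate 1, MRP49 without cac3 replicate 1, and MRPS5 without cac1 replicate 2 or any cac2 or cac3 library.

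**Figure D2:**
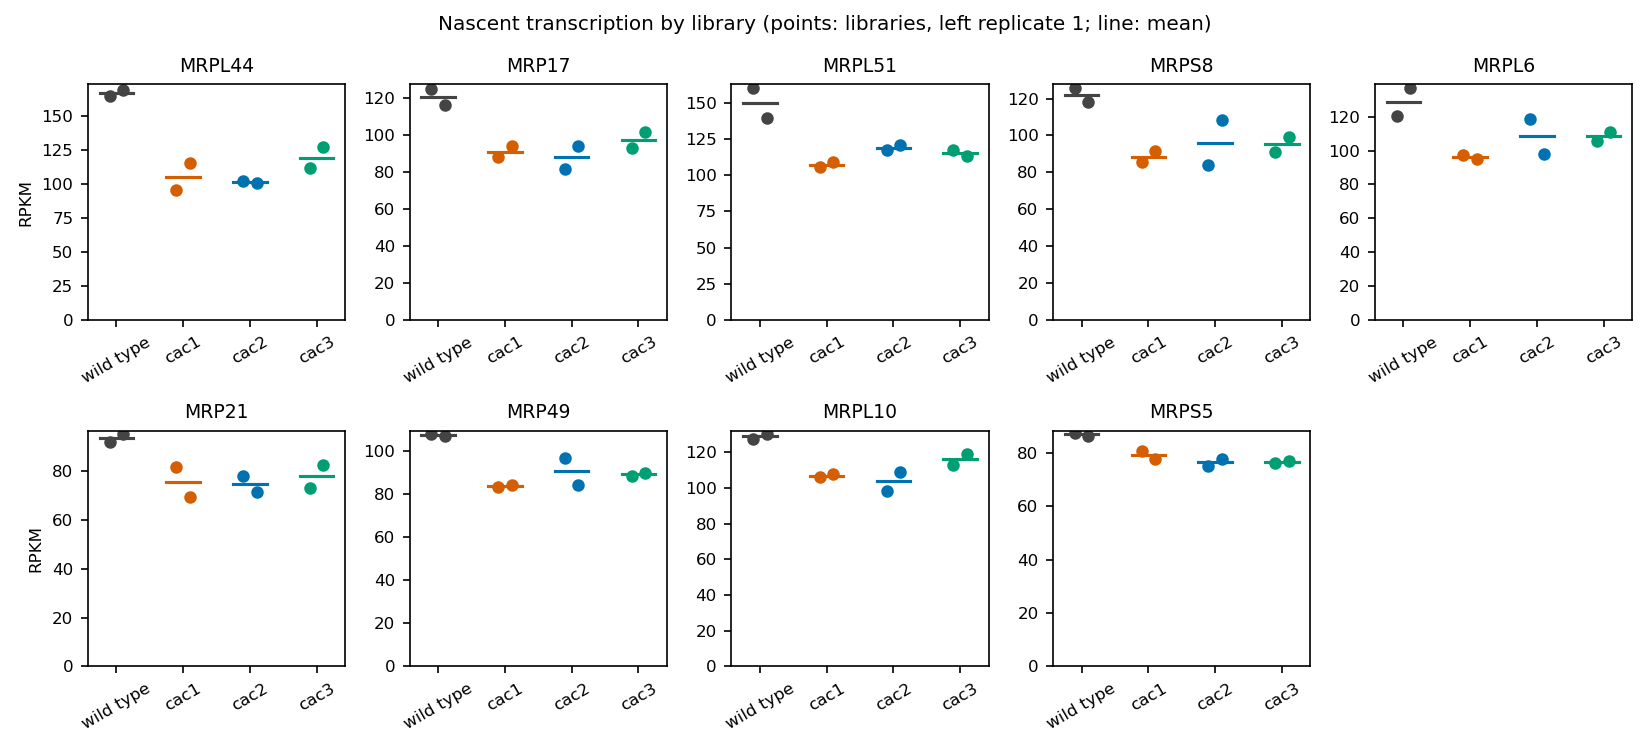
RPKM of the 9 members called lower in the mean of the mutants, 1 panel a gene on linear axes that start at 0, with points for libraries (replicate 1 on the left of each pair) and lines for group means of 2 libraries. In every panel all 6 mutant points lie below both wild-type points, with the widest gap for MRPL44 and the narrowest for MRPL6 and MRPS5.

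The same separation was seen beyond the called genes. In 23 of the 65 members all 6 mutant libraries lay below both wild-type libraries, where 14.7% of all features tested did so, and in 2 members all 6 lay above, where 17.4% did so. The large subunit had 5 of 36 members called lower and the small subunit 4 of 27, with median log2 changes of -0.13 and -0.11. None of the 9 called genes overlaps another model. Of the whole set, 8 share 1 bp with a model on the same strand and 33 overlap a model on the opposite strand.

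In cac1, 8 members fell and 0 rose, where 8.38% and 10.8% of features did, and the median change was -0.15. The 5 that fell most were MRPL44 (-0.64), MRPL6 (-0.46, adjusted p = 0.00909), MRPL51 (-0.45, adjusted p = 0.00948), MRPS8 (-0.44, adjusted p = 0.0332) and MRP17 (-0.38, adjusted p = 0.0356), and 7 of the 8 were also called in the mean of the mutants. In the exception, MRPL9, the counterpart of a bacterial large-subunit protein, the level was 121 and 129 RPKM in wild type and 107 and 103 in cac1 (-0.27, adjusted p = 0.0448), while the first cac2 library reached 130. Without further scaling 3 were lower and 1, RSM22, higher, and the DESeq2 test called 2 lower. The count was 13 with the replicate block and ranged from 1, without wild-type replicate 2, to 8 as single libraries were left out. It was 3 without wild-type replicate 1, 4 without cac1 replicate 1 and 2 without cac1 replicate 2.

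In cac2, 3 members fell and 0 rose, where 5.94% and 9.57% of features did, with a median change of -0.12. They were MRPL44 (-0.73, adjusted p = 0.000988), MRP17 (-0.43, adjusted p = 0.0256) and MRPL10 (-0.31, adjusted p = 0.0169). The share of members called is thus no larger than the background. The count was 6 with the replicate block, 1 with the DESeq2 test, 1 without either wild-type library and 7 without cac2 replicate 2.

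In cac3, 2 members fell and 1 rose, where 2.38% and 3.7% of features did, with a median change of -0.12. MRPL44 (-0.49, adjusted p = 0.00851) and MRPL51 (-0.35, adjusted p = 0.0429) fell. RSM22 rose, with 40.2 and 45.4 RPKM in wild type and 53.8 and 52.8 in cac3 (0.29, SE 0.07, adjusted p = 0.0374). Its levels in cac1 (47.1 and 50.1) and cac2 (47.4 and 45.5) lay between those of wild type and cac3. The replicate block gave 7 lower, the fit of cac3 and wild type alone 4, and the fit without further scaling 1. The DESeq2 test called MRPL44 alone and did not call RSM22. Leaving out either wild-type library or either cac3 library removed the call of RSM22, and without wild-type replicate 2 or cac3 replicate 1 no member was called lower. The count of lower members was 1 without wild-type replicate 1, cac1 replicate 2, cac2 replicate 2 or cac3 replicate 2, and 4 without cac2 replicate 1.

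**Figure D3:**
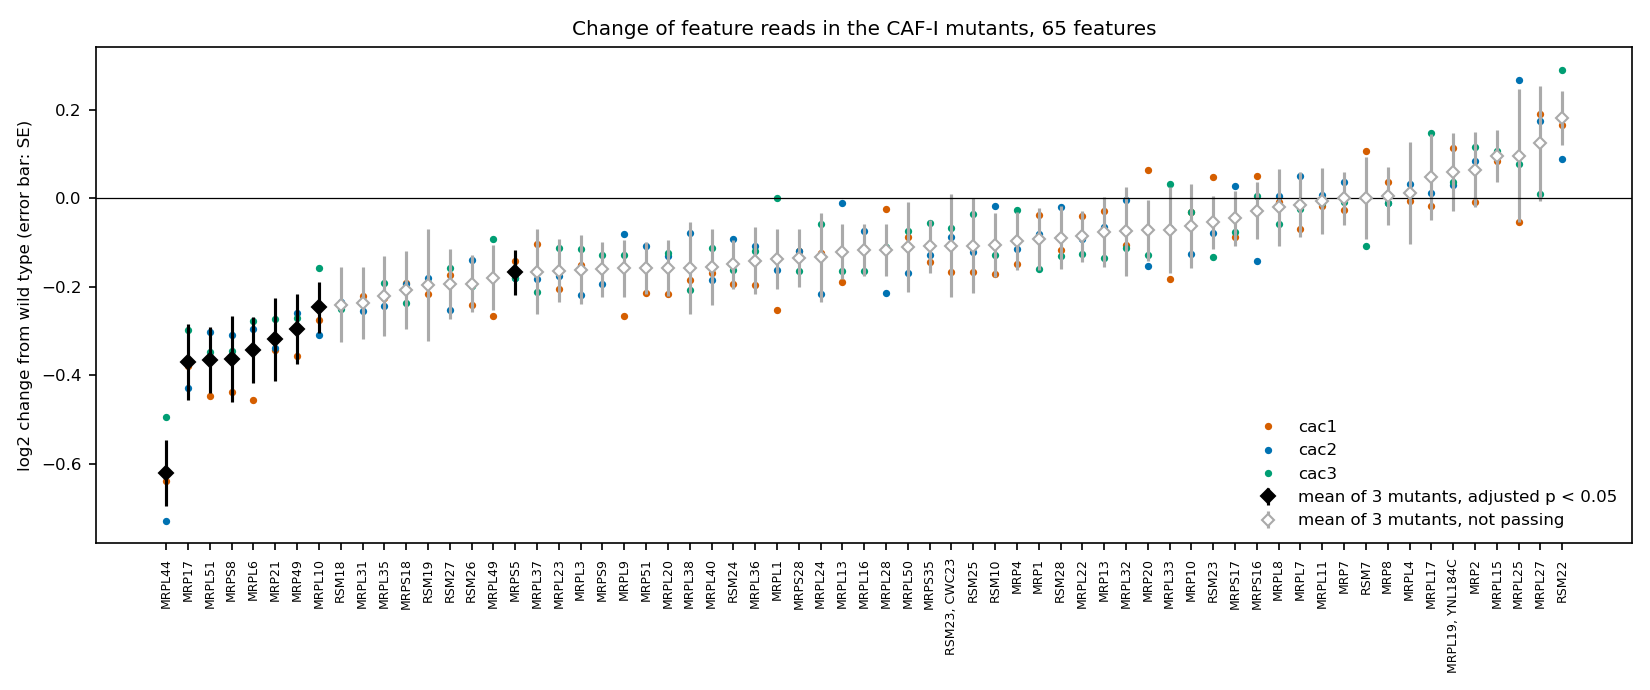
Log2 change of feature reads from wild type for each of the 65 features, with diamonds for the mean of the 3 mutants and its SE (filled where adjusted p is below 0.05) and coloured points for each mutant alone. The diamonds run from -0.62 for MRPL44 to 0.18 for RSM22, and 54 of 65 lie below zero.

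The 3 mutants share their control libraries, so their values are set side by side here and not compared through wild type. Tested directly against each other, no pair of mutants differed in any member: edgeR called 0 of 65 between cac1 and cac3, where 0.688% of features were lower and 0.674% higher, 0 between cac2 and cac3 (0.261% and 0.344%), and 0 between cac1 and cac2 (0.0138% and 0.0413%). At an unadjusted p below 0.05 there were 3, 2 and 3 members, where 15.7%, 10.7% and 8.42% of features were, and the DESeq2 test also called 0 in each pair. The smallest adjusted p in the 3 comparisons was 0.162 for MRPL1, 0.342 for RSM22 and 0.541 for MRPL28. A p above the threshold does not show that the mutants act alike: the fitted differences of single members ran from -0.25 to 0.21 between cac1 and cac3, from -0.24 to 0.19 between cac2 and cac3 and from -0.32 to 0.22 between cac1 and cac2.

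The other nuclear genes of mitochondrial translation and transcription were called in both directions. Their counts are to be read against the same 8.86% of features lower and 11.9% higher. Of 11 mitochondrial ribosomal proteins with other names, 3 fell and 0 rose: PET123, a small-subunit protein (-0.27, adjusted p = 0.015), SWS2, also of the small subunit (-0.23, adjusted p = 0.026), and MNP1, of the large subunit (-0.21, adjusted p = 0.032). MNP1 had 198 and 202 RPKM in wild type and between 157 and 189 in the 6 mutant libraries, which did not overlap wild type. None of 9 translation factors passed the test in either direction. Of 13 mitochondrial aminoacyl-tRNA synthetases 1 fell, MSK1 for lysine (-0.21, adjusted p = 0.0329), and 1 rose, MSW1 for tryptophan (0.22, adjusted p = 0.0412).

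Of 13 translational activators, proteins that act on single mitochondrial mRNAs, 3 fell and 0 rose. They were PET54 (-0.31, adjusted p = 0.0383), AEP2 (-0.25, adjusted p = 0.00974) and a model that carries both RIM9 and AEP1 (-0.18, adjusted p = 0.0361). Among 8 genes for ribosome assembly and anchoring, MRM2, a methyltransferase of the large rRNA, rose (0.27, adjusted p = 0.0433) and none fell, and neither of 2 genes for transcription of mitochondrial DNA passed. Over all 56 listed genes 7 fell and 2 rose, with a median of -0.03, closer to the ORF-T median than that of the 65 members. These calls depend on the fit: 2 of the 56 were lower (PET123 and AEP2) and 1 higher (MRM2) without wild-type replicate 1, and 0 either way without wild-type replicate 2 or with the DESeq2 test. Without further scaling 2 were lower and 8 higher, where 5.34% and 16.8% of all features were. With the replicate block the counts were 7 and 5, where 14.1% and 16.7% of features were called. The cytosolic ribosomal protein genes, named by the same kind of rule, fell in 81 of 135 cases and rose in 1, RPP1, which fits the naming rule but encodes a subunit of RNase P, with a median of -0.17. The count of 81 became 43 without further scaling, 66 with the DESeq2 test, 43 when wild-type replicate 1 was left out and 10 when replicate 2 was. With the replicate block the count was 106, where 14.1% of all features were lower. The share of features lower was 5.34% without further scaling and 4.19% with the DESeq2 test. Those without a wild-type library are given above for the members. The cytosolic genes' share of ORF-T reads was 13.5% and 13.8% in wild type and between 11.5% and 13.1% in the mutants. It thus moved in the same direction as the share of the mitochondrial set. The part of that shift in the members' values was not tested.

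The deposited tables also give the reads in a window at each feature's start, named diverge. The labels do not give its strand or place. Across 904 divergent pairs of ORF-Ts the window reads ranked with the read density of the divergent neighbour (Spearman 0.65 over 1808 windows, a description) and hardly with that of the gene itself (0.16), so the window is read here as transcription away from the gene on the opposite strand. Its width, worked out from the deposited RPKM, ran from 172 to 600 bp for the members, and where the neighbour is an ORF-T the width equalled the distance between the starts plus 100 bp in 30 of 30 cases. Window levels are therefore given as RPM, reads scaled for library size alone, and not per length.

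In wild type the members' windows held a median of 25 RPM, against 14.4 for all ORF-Ts, and ranged from 0.404 to 141. They followed the neighbourhood: the median was 38.9 for 30 members with a divergent ORF-T start within 500 bp, 26.6 for 10 with a CUT or SUT there (annotated unstable or stable noncoding transcripts), and 6.68 for 22 with no annotated divergent start. The members are shorter than ORF-Ts as a whole, with a median length of 881 bp against 1521 bp, and longer features can hold more reads. Uncorrected for length, the ratio of feature to window reads had a median of 3.43 against 6.58 for ORF-Ts. It was lowest for MRPL4 (0.641 and 0.723 in the wild-type libraries), MRPS16 (0.888 and 0.664) and MRP1 (0.911 and 0.982), whose divergent neighbours are the ORF-Ts LSM3, RRP12 and SVF1. It was highest for RSM26 (268 and 407), MRPL15 (182 and 366) and MRPL22 (204 and 75), all with 10 or fewer window reads in each wild-type library, so these ratios are imprecise. The order rests on entering an empty window as 0.5: MRPL27 had 0 and 6 window reads, which gives ratios of 116 and 57.3, but its first ratio has no upper bound.

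Windows were called in both directions. In the mean of the 3 mutants against wild type 18 members had higher and 3 lower window reads, where 18.2% of all 5479 windows tested were higher and 4.42% lower. The median change was 0.12, against 0.15 over ORF-Ts, and all 6 mutant libraries lay above both wild-type ones in 16 members (25.3% of windows tested) and below in 4 (8.94%). With the replicate block the count of lower windows was 5. Beside the 18 higher windows, that fit also called those of MRPS35, MRP10, the model of MRPL19 and YNL184C, and the model of RSM23 and CWC23. The share of all windows called with the block is not given here. The DESeq2 test called 5 higher and 1 lower. Without wild-type replicate 2, which held most of the wild-type reads, 1 member, MRPL22, was called higher and 0 lower; without wild-type replicate 1 or cac3 replicate 1 the count of lower windows was 1.

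MRPL15, a large-subunit protein with an RNase III-like fold, rose furthest. Its window had 0.543 and 0.269 RPM in the wild-type libraries, 3.99 and 3.55 without Cac1, 4.34 and 3.99 without Cac2 and 3.51 and 3.84 without Cac3. The 6 mutant libraries agreed closely and none came near wild type, but wild type rested on 1 and 2 reads. The log2 change was 3.45 (SE 0.53, adjusted p = 0.000838), and the ratio of pooled reads was 11.7, with an exact 95% interval for counting error of 3.88 to 57.5. Without wild-type replicate 2 the change was 2.75 and was not called. MRPL15 is the exception among the strong risers in having a divergent ORF-T, QNQ1, whose own level rose from 2.29 and 1.7 RPKM in wild type to between 4.03 and 7.71 in the mutants (1.58, adjusted p = 0.00417).

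MRPL22, a counterpart of the bacterial protein that lines the exit tunnel, had a window level of 0.543 and 1.35 RPM in the wild-type libraries, 13 and 12.3 without Cac1, 15.6 and 17 without Cac2 and 9.39 and 7.68 without Cac3. The groups were far apart, with cac2 highest and cac3 lowest of the mutants. The log2 change was 3.34 (SE 0.30, adjusted p = 2.48e-05) and the pooled ratio 9.61 (5.29 to 19.4, from 11 wild-type reads), and the change was called under every alternative run, reaching 4.40 without wild-type replicate 2. Over the same libraries the gene's own reads did not pass the test (-0.09). MRPL22 overlaps RPS3 at its far end by 53 bp, has no annotated divergent start, and lies at chromosome XIV, positions 303479 to 304663, on the minus strand.

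MRP13, a mitochondria-specific small-subunit protein, had a window level of 4.89 and 0.807 RPM in the wild-type libraries, 19.5 and 14.8 without Cac1, 18.2 and 8.78 without Cac2 and 10.5 and 9.68 without Cac3. All mutant libraries were higher, but the wild-type pair differed by more than any mutant pair on a ratio scale. The log2 change was 2.88 (SE 0.47, adjusted p = 0.00127), 3.96 without wild-type replicate 1, and 1.39 and not called without wild-type replicate 2. The pooled ratio was 7.53 (4.50 to 13.6 for counting error alone, from 15 wild-type reads). That interval leaves out the difference between the 2 wild-type libraries.

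The next 3 by size were RSM26, a small-subunit protein related to superoxide dismutases, MRPL35 and MRP8. They are given beyond the top 3 because their values were seen to stand apart. RSM26 changed by 2.36 from 1 and 3 wild-type reads, with a pooled ratio of 5.34 (1.98 to 20.2). MRPL35 changed by 2.19 from 2 and 7 reads, with a pooled ratio of 4.51 (2.30 to 10.1), and MRP8 by 1.64 from 1 and 8 reads, with a pooled ratio of 2.95 (1.48 to 6.71). None of them has an annotated divergent start, and none was called without wild-type replicate 2. MRP8 was also not called without wild-type replicate 1, cac1 replicate 2, cac2 replicate 2 or cac3 replicate 1, nor RSM26 without cac1 replicate 2, and the DESeq2 test called neither. The windows it called higher were those of MRPL15, MRPL22, MRP13, MRPL35 and MRPS17.

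**Figure D4:**
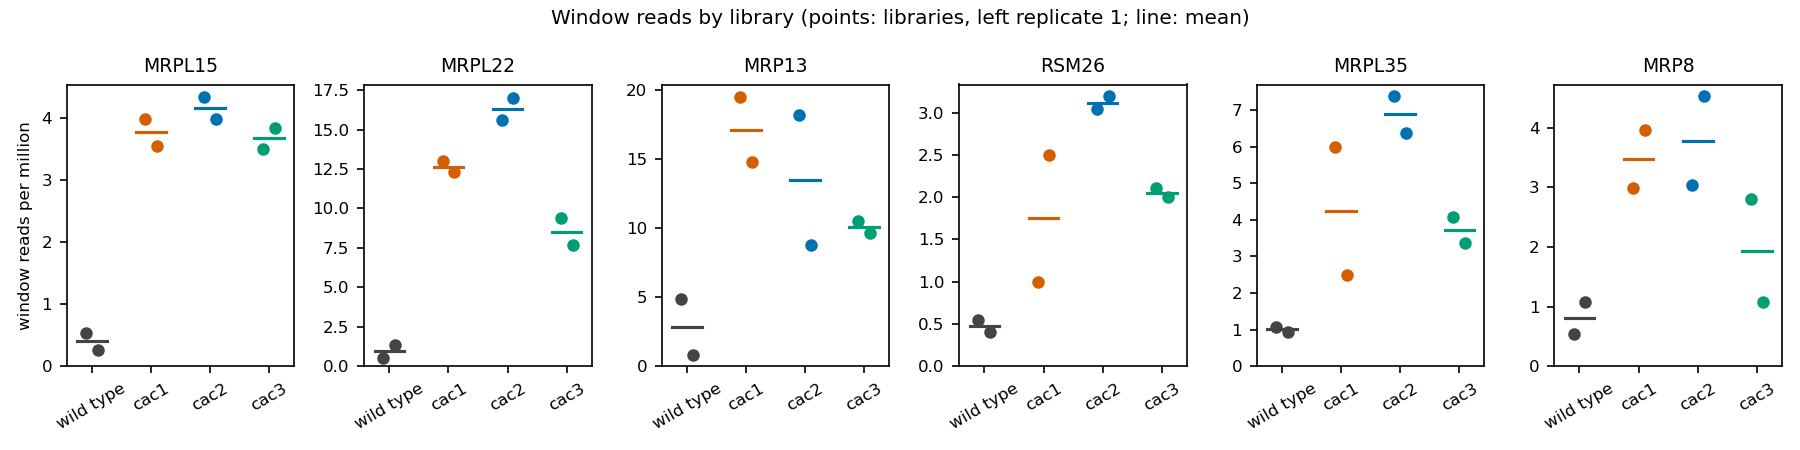
Window level in RPM by library for the 6 members whose windows rose most, on linear axes that start at 0 and differ between panels, with points for libraries (replicate 1 on the left) and lines for group means of 2 libraries. All mutant points lie above both wild-type points in every panel but that of MRP8, where the second cac3 library, at 1.08, is level with the second wild-type library.

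The windows that fell were those of MRPS28 (-0.38, adjusted p = 0.0201), MRP1 (-0.37, adjusted p = 0.0189) and RSM24 (-0.35, adjusted p = 0.0237), all small-subunit genes. These windows were among the better counted, with 72, 248 and 121 reads in the first wild-type library. MRP1, which like RSM26 is related to superoxide dismutases, had a window level of 135 and 137 RPM in wild type and between 88.4 and 124 in the 6 mutant libraries, with no overlap. The annotated neighbours moved with them in 2 cases: CUT522, which starts 212 bp upstream of MRPS28, fell (-0.45, adjusted p = 0.00973), and so did NGG1, a coactivator subunit gene divergent from RSM24 (-0.26, adjusted p = 0.0244). SVF1, divergent from MRP1, did not pass (-0.16). The DESeq2 test called MRP1 alone lower, and the window called lower was that of MRPS28 alone without wild-type replicate 1 and none without wild-type replicate 2. MRP1 and RSM24 also lost their call without cac3 replicate 1.

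Taken alone, cac1 had 14 members with higher and 2 with lower window reads, where 15.1% and 4.45% of windows were, cac2 had 16 and 1 (16.7% and 1.66%), and cac3 had 4 and 0 (5.33% and 0.748%). MRPL15, MRPL22, MRP13 and MRPL35 were the 4 called in cac3, and they were called higher in the other mutants as well. Their changes there were 3.38, 2.84, 2.52 and 1.91, next to 3.40, 3.39, 3.24 and 1.89 in cac1 and 3.56, 3.78, 2.87 and 2.77 in cac2. No member's window differed between mutants by the edgeR test, where 0.0183% of windows did in each pair. At an unadjusted p below 0.05 there were 9 members between cac1 and cac3, where 10% of windows were, 13 between cac2 and cac3 (10.6%) and 8 between cac1 and cac2 (7.36%).

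The window calls can be sorted by what is annotated upstream. Of the 22 members with no annotated divergent start 12 had higher and 0 lower window reads, where 31.6% of such ORF-T windows rose and 0.96% fell, and all 22 lay above zero, with a median of 0.73 against 0.63 for such ORF-Ts. Of the 30 with a divergent ORF-T 4 were higher and 2 lower, where 4.97% and 5.46% were, with medians of -0.01 and -0.02. Of the 10 with a CUT or SUT 2 were higher and 1 lower, where 12% and 11.2% were, and of 3 with a start of another kind none was called, where 6.9% and 9.48% were. The ORF-Ts as a whole show the same order of classes, and whether the members differ from them was not tested.

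Where an annotated divergent transcript exists, its own counts could be set beside the window. Of the 4 rising windows with an ORF-T neighbour 2 had a neighbour that rose, QNQ1 at MRPL15 and GCV2 at MRPS17 (0.57, adjusted p = 0.000579). The window and neighbour had the same sign in 19 of 30 cases, but the share over all such ORF-T pairs is not given. GCV2, a subunit of the glycine cleavage complex, went from 40.7 and 37.1 RPKM in wild type to 61.8 and 58.7 without Cac1, 67.2 and 59.9 without Cac2 and 50.5 and 48.1 without Cac3. The 3 divergent SUTs rose, where 22.1% of all SUTs did: SUT659 at MRPL38 (0.87, adjusted p = 0.00357), SUT138 at MRPL9 (0.81, adjusted p = 0.005) and SUT462 at MRP10 (0.42, adjusted p = 0.0375). Of 8 divergent CUTs 1 fell, the CUT522 named above, and none rose, where 13.2% and 8.86% of all CUTs did. Neither group was tested as a whole. No CUT or SUT lying antisense over a member passed, of 9 CUTs and 1 SUT.

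**Figure D5:**
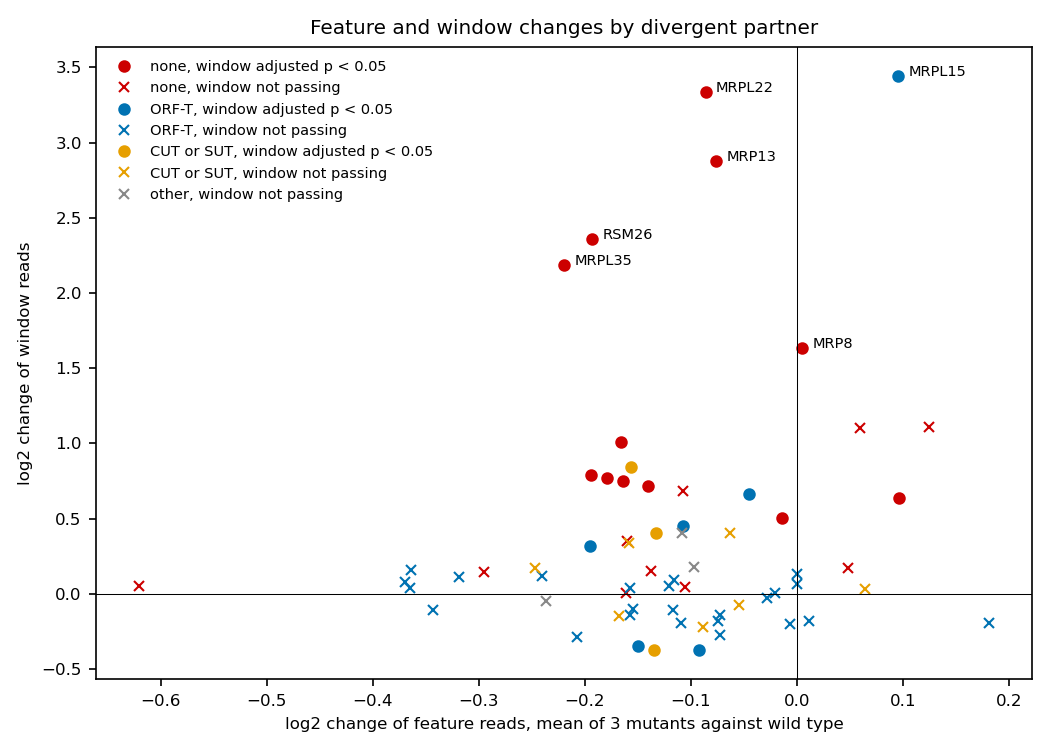
Log2 change of window reads (vertical) against that of feature reads (horizontal), mean of the 3 mutants against wild type, for the 65 features; colours give the kind of divergent neighbour and filled circles mark windows with adjusted p below 0.05. The 6 named genes stand at window changes from 1.64 to 3.45 with feature changes between -0.22 and 0.10, and MRPL44, at the far left, has a window change of 0.05.

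None of the 9 members whose feature reads fell was called for its window in either direction, where 27.6% of all features with lower reads and a tested window were, and so small a count says little about the members. MRPL44 had a window level of 20.6 and 18.6 RPM in wild type and between 16.5 and 24.2 in the mutants, overlapping on both sides (0.05). The ratio of feature to window reads, tested within libraries, was lower in 18 members and higher in 0, where 16.7% and 3.43% of those tested were, with a median of -0.36 against -0.13 for ORF-Ts. The fit with the replicate block called 29 lower and 2 higher, and without wild-type replicate 2 only MRPL22 was called. The share of all ratios called in those fits is not given here, so these counts are not a result about the members. Of the 18 members with a lower ratio, 15 were also called for a higher window and 1, MRPL44, for lower feature reads (-0.68, adjusted p = 0.0349).

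In single mutants the ratio was lower in 13 members and higher in 1, MRP1, in cac1 (13.7% and 3.08% of those tested), lower in 18 and higher in 0 in cac2 (15% and 1.84%), and lower in 5 and higher in 0 in cac3 (4.98% and 0.475%). The largest falls in the ratio were those of MRPL22 (-3.40), MRPL15 (-3.36) and MRP13 (-2.99), the genes with the largest window changes. In 28 members all 6 mutant ratios lay below both wild-type ones, where 23.2% did, and in 2 all lay above, where 8.91% did. The members' median ratio per library was 3.20 and 3.69 in wild type and between 2.48 and 2.85 in the mutants, with no overlap. Over ORF-Ts it was 6.46 and 6.42 in wild type and between 5.39 and 6.10 in the mutants, a shift in the same direction.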

How the data were processed

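NET-seq libraries of 8 yeast cultures, 2 per strain, were analysed. Whole-number read counts per feature and estimated counts per window come from the authors, who entered empty windows as 0.5, here read as 0. The feature-to-window ratio, RPKM values and, in mutant tables, natural log values were deposited by the authors as well; RPKM gave the window widths, and the ratio and level values printed were recomputed from counts. Per the labels the protocol followed Churchman et al.; aligner, genome build and filtering, not given in the sources used here, are left unnamed, and coordinates are those of the files. No sequences were used.

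Counts of 7271 features with at least 1 RPKM in 2 libraries, and of 5479 windows with at least 1 RPM (reads scaled for library size) in 2 libraries, were fitted with edgeR 4.0.16 (limma 3.58.1, R 4.3.3), TMM scaling over ORF-Ts and 1 coefficient per strain. The ratio was fitted on both counts with a library term. The steps were tested on simulated data. DESeq2 1.42.0, other scalings, no filter, a replicate block and leaving out each library were alternatives. Common dispersion gave a coefficient of variation of 8.13% for features and 13.3% for windows. Pooled-ratio intervals cover counting error only.

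The labels number replicates alike in each strain without saying that numbers mark a shared day. Differences between replicates 2 and 1 correlated between strains at 0.42 to 0.59 over 4877 ORF-Ts in every pair of strains, so the blocked fit is printed where it changes a call. Labels call replicates biological without naming separate cultures, so p-values measure the spread between these libraries.

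The members and gene lists were chosen with earlier results of these data known. Named were all members called in the mean of the mutants, up to 5 each way per mutant, the 5 highest and 5 lowest levels, the 3 highest and lowest ratios, and up to 3 each way for windows and ratios. Of the 65 members 63 matched a RefSeq symbol (assembly R64).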

Additional observations from a re-analysis of the deposited data

How the results depend on the processing

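DESeq2's size factors and the absence of a filter changed no count by over 1.5 times, and no direction reversed under any alternative run. For the mean of the mutants, the 9 members with lower feature reads became 2 with the DESeq2 test and 14 with the replicate block, 8 of them shared, and ranged from 2 to 11 over the libraries left out; higher members became 1 with the block and ranged from 0 to 0. Without scaling beyond the total of reads 6 were lower and 1, RSM22, higher. The members' median was -0.06, which is not to be set against the ORF-T median of the fit with TMM scaling. In cac1 the 8 lower became 3 without scaling, with 1 higher, 2 with the DESeq2 test and 13 with the block (1 to 8 over libraries left out). In cac2 the 3 lower became 1 with the DESeq2 test and 6 with the block (1 to 7). In cac3 the 2 lower became 1 without scaling, 1 with the DESeq2 test, 7 with the block and 4 when only the 2 groups were fitted (0 to 4), and the 1 higher became 0 with the DESeq2 test (0 to 1). Pairs of mutants gave 0 throughout. The 18 higher and 3 lower windows became 5 and 1 with the DESeq2 test, the lower 5 with the block, and over libraries left out 1 to 17 and 0 to 4. The 18 lower and 0 higher ratios became 29 and 2 with the block, and 1 to 18 and 0 to 1 over libraries left out. With the libraries that leave 1 wild-type sample, that sample is assumed to vary like the other strains. The block moved no other count of members by over 1.5 times. It also raised the share of all features called in the mean of the mutants, from 8.86% to 14.1% lower and from 11.9% to 16.7% higher. Where no share over all features stands beside a count from an alternative run, that count is not a result about the members. Causes were not tested, but leaving out a wild-type library leaves a single control. Low window reads in wild type limit the window and ratio values.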
